A study of Mus musculus with 4 samples.

Results

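The genes of DNA replication and DNA repair were examined in bone marrow derived macrophages (BMMs) cultured with RANKL and dimethyl itaconate (DI) or with RANKL and vehicle. Members were the genes that the authors' annotation table assigns to at least 1 of 6 KEGG pathways, namely DNA replication, base excision repair, mismatch repair, nucleotide excision repair, homologous recombination and the Fanconi anemia pathway. The rule took 141 of the 34745 genes, of which 2 were not analysed here, so that 139 members remained. In all, 109 members belonged to 1 pathway and 30 to more than 1.

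BMMs are macrophages grown from bone marrow, and RANKL is the cytokine that drives them to become osteoclasts. DI is a cell-permeable ester of itaconate, a metabolite that activated macrophages make. The cells came from wild-type male C57BL/6 mice aged 8 weeks, were kept in α-MEM without FBS for 12 h, and then received complete medium with RANKL at 100 ng/mL for 24 h. The RANKL+DI group also received DI, at a dose of 20 mM by the sample labels and of 20 μM by the study's methods, and the RANKL+Veh group received the vehicle, labelled DMSO. Each group held 2 libraries. The labels do not say that these came from separate mice or cultures, so that p-values measure only the spread between these libraries, which may be technical. There was no group without RANKL and no unesterified itaconate.

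A cell copies its genome once per division, when the MCM helicase opens the helix, primase and polymerase alpha lay down primers, polymerases delta and epsilon extend them around the sliding clamp PCNA, and nucleases and a ligase join the pieces. Repair pathways borrow part of the same machinery. Base excision repair removes damaged bases, mismatch repair corrects copying errors, nucleotide excision repair cuts out bulky lesions, and homologous recombination and the Fanconi anemia pathway mend breaks and crosslinks, mostly in cells that have copied their DNA. Macrophages grown with M-CSF divide, and precursors leave the cell cycle as they fuse into osteoclasts.

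The libraries held between 16085692 and 19403480 counts, and 12590 genes passed the filter on low counts and were tested with edgeR. Macrophage markers were high in every library, with a summed level between 22438 and 29434 CPM (counts scaled to a common library size with TMM factors) over 9 table entries, 5 of which rose and 2 of which fell with DI. Of the 8 tested osteoclast markers, 5 fell and 2 rose. Markers of other cell types were close to absent, with summed levels up to 0.600 CPM for B cells, 0.699 CPM for T and NK cells, 0.0600 CPM for mast cells and basophils, 0.215 CPM for erythroid cells and 1.61 CPM for progenitors. Those of neutrophils summed to between 9.23 and 11.1 CPM and those of stromal cells to between 40.5 and 49.7 CPM, and none of them passed the test. In such bulk RNA, fewer cells of a kind and less RNA per cell cannot be told apart.

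With DI, 33 of the 136 tested members passed an adjusted p of 0.05 in edgeR's quasi-likelihood test (24.3%), against 14.8% of all tested genes. Of these, 32 fell (23.5%, against 7.7% of all tested genes) and 1 rose (0.735%, against 7.14%). The changes were modest, since the 32 members fell by between 16.6% and 36.5%, with a median of 26.7%, and no tested member had an absolute log2 fold change over 1. Of the tested members, 107 had a log2 fold change under 0 and 29 above 0, with a median of -0.19, while the median over all tested genes was 0.0012. The groups did not overlap for 98 tested members (72.1%, against 58.6% of all tested genes), among them all 33 that passed the test. The 103 members that did not pass had 75 values under 0 and 28 above 0. All 11 tested members with fewer than 100 counts on average were among them, and the called member with the fewest counts averaged 258.25.

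The number of members called rested on each library. It fell with any library left out, when a group held a single library, and so did the number called among all tested genes. Without either vehicle library, the share of members called in either direction came close to that of all tested genes. The median log2 fold change of the members was -0.20 without RANKL+DI replicate 1 and -0.19 without RANKL+DI replicate 2. It was -0.21 without RANKL+Veh replicate 1 and -0.17 without RANKL+Veh replicate 2. When libraries were scaled by size only, which shifted the median of all genes to -0.10, 50 members were called and all were lower. Across the 14 settings tried, 11 members were called in every one (Fanca, Lig1, Mcm2, Mcm4, Mcm5, Mcm6, Mcm7, Pold1, Pole, Rad54l and Rfc5). The other 22 were each called in at least 7 settings, and this number is given beside those named.

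DNA replication held the most changed genes. Of its 33 tested members, 16 fell and none rose (48.5% called), with a median log2 fold change of -0.35 and 28 values under 0. Outside it, 16 of 103 tested members fell and 1 rose, with a median of -0.15. This made 16.5% called and 15.5% lower, against 14.8% called and 7.7% lower over all tested genes. In mismatch repair 7 of 20 fell (35.0%), in homologous recombination 6 of 25 (24.0%), in the Fanconi anemia pathway 11 of 47 (23.4%) and in base excision repair 6 of 29 (20.7%), with none higher by edgeR. In DNA replication, mismatch repair, homologous recombination and base excision repair 2 members each lay above 0 at an unadjusted p under 0.05, and in the Fanconi anemia pathway 1 did. DESeq2's Wald test called 1 member higher, Rpa1, which belongs to DNA replication, mismatch repair, homologous recombination and the Fanconi anemia pathway. In these pathways and base excision repair, edgeR's exact test and limma-voom called none higher. In nucleotide excision repair 6 of 41 fell and 1 rose (17.1%). In DNA replication 9 members were called lower and 1 higher (Fen1) without RANKL+Veh replicate 1, and 10 were called lower without RANKL+Veh replicate 2. Over the 4 libraries left out in turn the calls ranged from 3 to 6 in mismatch repair, 2 to 3 in homologous recombination, 1 to 7 in the Fanconi anemia pathway, 3 to 5 in base excision repair and 4 to 6 in nucleotide excision repair.

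**Figure D1:**
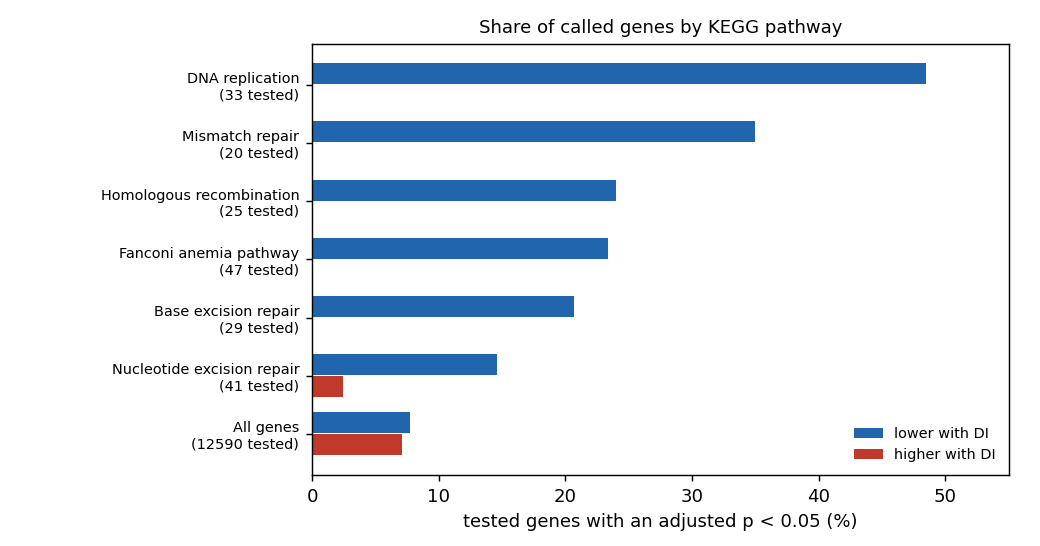
Horizontal bars give the percentage of tested genes that passed an adjusted p of 0.05 (edgeR), lower with DI in blue and higher with DI in red, for the 6 KEGG pathways and for all 12590 tested genes. DNA replication stands at 48.5% lower, and nucleotide excision repair is the pathway that also has a gene called higher.

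Since the pathways share genes, the calls were also split by whether a member belonged to DNA replication. All 6 genes that fell in nucleotide excision repair were shared with DNA replication, as were 5 of the 7 in mismatch repair and 4 of the 6 in base excision repair. These shared genes encode the ligase, the clamp loader and the polymerases that fill the gap once damage has been cut out. Of the members of nucleotide excision repair that were not shared, 0 of 25 fell and 1 rose by edgeR, with a median log2 fold change of -0.03, and 1 was lower at an unadjusted p under 0.05. In the Fanconi anemia pathway, by contrast, 0 of the 11 genes that fell were in DNA replication, and 45 of its 47 tested members lay outside it. Of the members not shared, 2 of 19 fell in base excision repair (10.5%), 2 of 7 in mismatch repair (28.6%) and 4 of 19 in homologous recombination (21.1%). Over all tested genes 14.8% were called and 7.7% fell.

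All 6 subunits of the MCM helicase fell. The helicase is loaded onto origins as a hexamer and opens the DNA ahead of the fork. Mcm7 (ENSMUSG00000029730, chromosome 5) stood at 93.9 and 94.9 CPM in the RANKL+Veh libraries and at 61.6 and 61.4 CPM in the RANKL+DI libraries. Mcm2 stood at 93.8 and 93.5 CPM with vehicle and at 62.1 and 62.5 CPM with DI. Mcm4 stood at 104 and 102 CPM with vehicle and at 68.0 and 68.7 CPM with DI. For these genes the libraries of a group lay within a few CPM of each other and the groups were far apart. Mcm5 went from 152 and 151 CPM to 99.5 and 106 CPM. Mcm6 went from 250 and 258 CPM to 178 and 175 CPM. Mcm3 went from 128 and 123 CPM to 101 and 90.7 CPM, and had the smallest fall of the 6.

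Mcm7 fell by 34.8% (log2 fold change -0.62, standard error 0.0522, adjusted p = 0.0019, edgeR). Mcm2 and Mcm4 each fell by 33.5% (log2 fold change -0.59 for both, adjusted p = 0.00212 and 0.00195, edgeR), Mcm5 by 32.1% (-0.56, adjusted p = 0.00214) and Mcm6 by 30.4% (-0.52, adjusted p = 0.00148). Mcm3 fell by 23.6% (-0.39, standard error 0.0652, adjusted p = 0.0143, edgeR), was called in 13 of 14 settings, and had an adjusted p of 0.0618 without RANKL+Veh replicate 1. The median of the 6 was -0.57 and stayed under 0 with every scaling and every library left out. Mcm7 shares 72.8% of its transcript with the pseudogene Gm5487 at 97.7% identity, so that its level is less certain than those of the other subunits.

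MCM genes are classic targets of E2F factors, so their promoters were read for E2F letters. RefSeq promoter windows on GRCm38.p6 reached from 250 bases before to 50 bases after the most upstream start site. Matching by gene symbol, or else by Ensembl identifier, gave windows for 105 of the 139 members and for 5 of the 6 MCM genes. The letters searched on either strand were TTTCCCGC, TTTGGCGC, TTTGCCGC and TTTCGCGC, which may overlap one another. They occurred in 4 of the 5 MCM windows (80.0%), in 10 of 27 windows of DNA replication genes (37.0%), in 8 of 78 windows of the other members (10.3%) and in 629 of all 27025 windows (2.33%). That last set takes every gene with a RefSeq window, tested here or not, while 136 of the 139 members were tested. The members and all windows are therefore not compared like for like. The 250 bases upstream of the start are shown for Mcm6 (chr1:128359706-128359955, minus strand) and Mcm5 (chr8:75109259-75109508, plus strand), which hold matches, and for Mcm2 (chr6:88898781-88899030, minus strand), which fell as much and holds none. These stretches contain no annotated exon. Each is written 5′ to 3′ on the gene's strand, and capitals mark the matches.
Mcm6: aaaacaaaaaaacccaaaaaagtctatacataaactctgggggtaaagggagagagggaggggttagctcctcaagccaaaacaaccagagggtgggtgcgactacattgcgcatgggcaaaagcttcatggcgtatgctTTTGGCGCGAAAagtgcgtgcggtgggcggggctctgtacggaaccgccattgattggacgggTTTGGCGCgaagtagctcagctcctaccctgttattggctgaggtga
Mcm5: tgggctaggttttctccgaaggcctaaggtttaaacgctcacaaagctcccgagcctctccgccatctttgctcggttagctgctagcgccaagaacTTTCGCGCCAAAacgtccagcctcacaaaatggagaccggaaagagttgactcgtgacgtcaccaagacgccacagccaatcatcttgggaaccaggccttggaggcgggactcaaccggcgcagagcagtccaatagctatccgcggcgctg
Mcm2: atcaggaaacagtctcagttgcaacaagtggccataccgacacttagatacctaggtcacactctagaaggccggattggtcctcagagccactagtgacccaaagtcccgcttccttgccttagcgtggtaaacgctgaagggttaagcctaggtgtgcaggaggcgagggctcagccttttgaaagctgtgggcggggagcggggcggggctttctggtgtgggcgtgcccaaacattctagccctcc

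In Mcm6 the matches lay from 110 to 99 and from 47 to 40 bases upstream of the start, and the first stretch holds a pair of overlapping matches on opposite strands. In Mcm5 a pair of overlapping matches lay from 153 to 142 bases upstream. The absence of a match in Mcm2 says only that these letters are not in this window. Among members that fell, 7 of 26 windows held the letters (26.9%), and among those not called 10 of 77 (13.0%). The MCM genes, counted above, held 4 of these 7 windows and 5 of the 26. The other genes that fell and held the letters were Msh6, Pola1 and Pold1. Whether the letters had a part in the falls was not tested. The letters CCAAT, also searched on either strand, occurred in 61 of the 105 member windows (58.1%) and in 38.0% of all windows, with similar shares among members that fell (57.7%) and those not called (57.1%). Here too, all windows include those of genes not tested.

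Of the enzymes that start and extend the new strands, 6 of 11 fell. Polymerase alpha and primase, which make the RNA-DNA primers, had 3 of 4 members lower with a median log2 fold change of -0.33, and the calls for all 3 were lost without RANKL+DI replicate 1, without RANKL+Veh replicate 1 and without RANKL+Veh replicate 2. The primase subunit Prim1 stood at 28.3 and 28.0 CPM with vehicle and at 20.2 and 20.9 CPM with DI (log2 fold change -0.46, adjusted p = 0.0152, edgeR, called in 11 of 14 settings). Pola1, the catalytic subunit of polymerase alpha, went from 59.8 and 61.8 CPM to 42.8 and 50.6 CPM (-0.38, adjusted p = 0.0449, 11 of 14 settings), and its partner Pola2 from 38.0 and 39.2 CPM to 31.4 and 32.0 CPM (-0.28, adjusted p = 0.0376, 7 of 14 settings). In all 3 genes both DI libraries were below both vehicle libraries.

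Polymerases delta and epsilon copy the lagging and the leading strand. All 7 of their members had a log2 fold change under 0, from -0.65 to -0.16, and 3 fell. Pole, the catalytic subunit of polymerase epsilon (ENSMUSG00000007080, chromosome 5), stood at 66.3 and 67.7 CPM with vehicle and at 45.4 and 39.7 CPM with DI. It fell by 36.5%, the largest fall among the called members (log2 fold change -0.65, standard error 0.0814, adjusted p = 0.00554, edgeR). Pold1, the catalytic subunit of polymerase delta, stood at 49.6 and 46.9 CPM with vehicle and at 32.4 and 32.3 CPM with DI. It fell by 33.0% (log2 fold change -0.58, standard error 0.0662, adjusted p = 0.00431, edgeR). Its accessory subunit Pold2 fell by 21.3% (-0.35, adjusted p = 0.0429, 7 of 14 settings).

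The sliding clamp and its loader had 2 of 6 genes lower. Pcna, which encodes the ring that tethers polymerases to DNA, stood at 346 and 329 CPM with vehicle and at 365 and 366 CPM with DI, and did not pass the test (log2 fold change 0.12, adjusted p = 0.118, edgeR). Its value was above 0 in every setting, at 0.01 when libraries were scaled by size only. Part of its transcript (51.5%) matches the pseudogene Pcna-ps2 at 99.2% identity. Of the 5 clamp loader genes, 2 fell. Rfc5 went from 48.5 and 46.3 CPM to 34.7 and 33.0 CPM (-0.49, standard error 0.0682, adjusted p = 0.00787, edgeR). A stretch of 21.2% of the Rfc5 transcript matches Gm12870 at 95.5% identity. Rfc4 fell by 27.7% (-0.47, adjusted p = 0.0346, 8 of 14 settings). Exons of Eif4a2 on the other strand cover 12.7% of those of Rfc4, and exons of Wsb2 cover 10.7% of those of Rfc5.

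Okazaki fragments, the short pieces of the lagging strand, are trimmed by nucleases and joined by DNA ligase 1. Lig1 stood at 86.9 and 87.5 CPM with vehicle and at 59.3 and 66.8 CPM with DI, and fell by 27.7% (log2 fold change -0.47, standard error 0.0725, adjusted p = 0.0112, edgeR). The nuclease-helicase Dna2 went from 36.9 and 37.4 CPM to 31.3 and 28.6 CPM (-0.31, adjusted p = 0.0422, 7 of 14 settings). For Fen1, the flap endonuclease, the vehicle libraries stood far apart at 73.9 and 31.9 CPM, with the DI libraries between them at 55.1 and 59.4 CPM. The fitted value of 0.11 on the log2 scale (standard error 0.35, adjusted p = 0.873, edgeR) became 0.84 without RANKL+Veh replicate 1 (adjusted p = 0.00988) and -0.37 without RANKL+Veh replicate 2 (adjusted p = 0.0607). The gene Gm10143 on the opposite strand covers 78.8% of its exons, and its counts were 80 and 22 in the vehicle libraries and 2 and 16 in the DI libraries. Its part in the Fen1 counts was not tested.

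Replication protein A coats exposed strands of DNA. Its large subunit Rpa1 stood at 99.4 and 100 CPM with vehicle and at 128 and 113 CPM with DI, a difference of 0.27 on the log2 scale that lay just outside the threshold (adjusted p = 0.0501, edgeR). It was called higher in 5 of the 14 settings, with adjusted p-values from 0.0142 to 0.159 over the alternatives. The middle subunit Rpa2 is assigned to none of the 6 pathways in the table and so is no member. It fell from 36.5 and 38.9 CPM to 29.2 and 27.9 CPM (-0.40, adjusted p = 0.0172, edgeR).

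**Figure D2:**
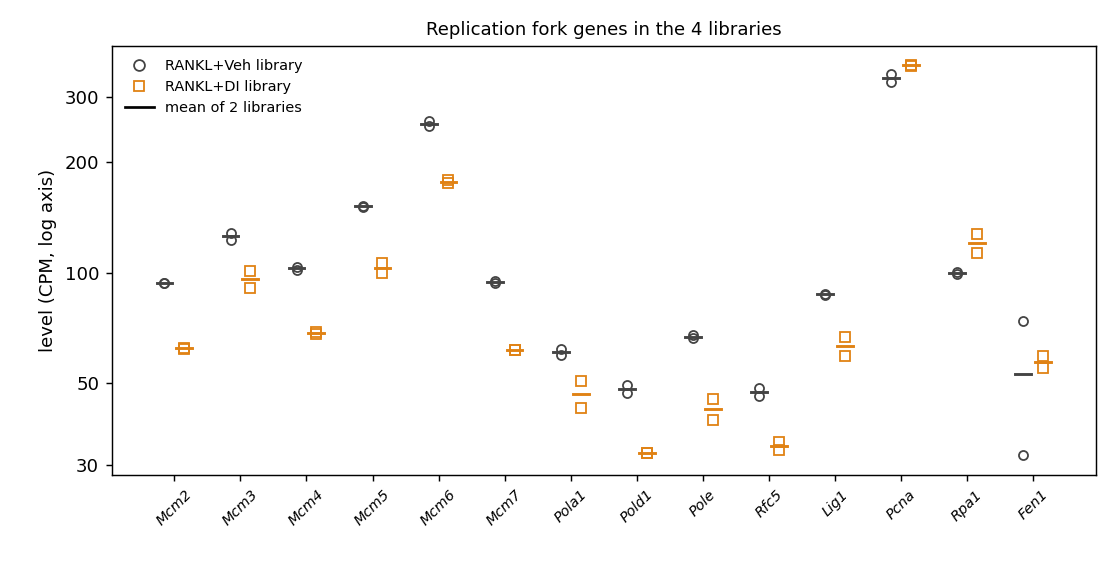
Each symbol is the level of a gene in 1 library in CPM on a log axis, with grey circles for RANKL+Veh, orange squares for RANKL+DI and a bar at the mean of 2 libraries. The 6 MCM genes, the polymerase genes, Rfc5 and Lig1 are lower in both DI libraries, Pcna and Rpa1 are not, and the vehicle libraries lie far apart for Fen1 (73.9 and 31.9 CPM).

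Base excision repair starts with glycosylases that recognise single damaged bases. Of the 10 glycosylase genes, 1 fell. Neil3, which acts on oxidised bases, went from 31.8 and 32.1 CPM to 24.1 and 22.7 CPM (log2 fold change -0.45, adjusted p = 0.0143, edgeR, called in 11 of 14 settings). Ogg1, the glycosylase for 8-oxoguanine, stood at 8.48 and 7.50 CPM with vehicle and at 9.90 and 8.80 CPM with DI, and did not pass (0.22, 95% interval -0.11 to 0.56, adjusted p = 0.332). Ung, which removes uracil, did not pass either (-0.42, adjusted p = 0.146). The lowest log2 fold change of all members, named here after its value was seen, was that of Mutyh, the adenine glycosylase that acts opposite 8-oxoguanine, at -0.99, but it rested on 54 and 72 counts with vehicle and 27 and 38 with DI and was not called (adjusted p = 0.0754, edgeR).

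Of the 9 genes that act after the glycosylase, 1 fell. It was Hmgb1, a chromatin protein that the KEGG pathway lists as a cofactor, at 50.4 and 52.95 CPM with vehicle and 40.7 and 41.8 CPM with DI (log2 fold change -0.33, adjusted p = 0.0254, edgeR, 10 of 14 settings). Its transcript has 32 near-identical copies in the annotation, so that its counts are uncertain. Apex1, the endonuclease that cuts at the emptied site, and Xrcc1, the scaffold for the final ligation, had log2 fold changes of -0.26 and -0.25 and did not pass (adjusted p = 0.0908 and 0.146, edgeR). Apex1 overlaps a gene on the opposite strand over 61.7% of its exons.

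Of the 7 genes for mismatch recognition and excision, 2 fell. One of them was Msh6, a subunit of a complex that recognises mispaired bases, which went from 56.1 and 58.6 CPM to 47.7 and 48.0 CPM. Both DI libraries were below both vehicle libraries, and at 16.6% this was the smallest fall among called members (log2 fold change -0.26, standard error 0.0618, adjusted p = 0.0417, edgeR, 7 of 14 settings).

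Nucleotide excision repair held the 1 member that rose. Xpc, which encodes the sensor of helix distortion (ENSMUSG00000030094, chromosome 6), stood at 24.9 and 21.4 CPM with vehicle and at 30.4 and 30.5 CPM with DI. It was higher by 31.4% (log2 fold change 0.39, standard error 0.0945, adjusted p = 0.0435, edgeR). The call stood in 8 of 14 settings. The adjusted p was 0.102 without RANKL+DI replicate 1, 0.107 without RANKL+DI replicate 2, 0.132 without RANKL+Veh replicate 2, 0.0844 with scaling by library size only, 0.0777 in DESeq2's Wald test and 0.0633 with the replicate block. The other 11 genes for damage recognition did not pass, and the median of the 12 was 0.01, or -0.09 with scaling by library size only. Their summed level was 1187 and 1206 CPM with DI and 1208 and 1208 CPM with vehicle.

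The levels of further nucleotide excision repair genes were close in the groups. Ddb2, the sensor of ultraviolet damage, had a log2 fold change of -0.03 (95% interval -0.59 to 0.52) at 3.70 and 4.02 CPM with vehicle. Xpa, which verifies the lesion, had a value of 0.06 (95% interval -0.42 to 0.54), and Ercc1, a subunit of the nuclease that cuts on the 5′ side, of 0.03 (95% interval -0.42 to 0.48). All 3 intervals reach past the log2 fold change of Mcm3 (-0.39) and do not show that the levels were equal. Of the 10 genes of TFIIH and its kinase, 0 passed the test by edgeR, DESeq2's Wald test or limma-voom, 1 lay above 0 at an unadjusted p under 0.05, and values ran from -0.36 to 0.22.

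In homologous recombination, 2 of the 12 genes for strand exchange and its mediators fell. Rad54l, whose product remodels the DNA during strand exchange, went from 54.2 and 50.7 CPM to 33.8 and 37.4 CPM and fell by 32.1% (log2 fold change -0.56, standard error 0.0797, adjusted p = 0.00838, edgeR). It overlaps Lrrc41 on the opposite strand over 15.4% of its exons. Brca2 and Palb2, which act together in strand exchange, did not pass, with values of -0.15 (adjusted p = 0.66, edgeR) and -0.23 (adjusted p = 0.357). The vehicle libraries differed for Brca2, at 14.2 and 21.1 CPM, and both DI libraries (15.4 and 16.3 CPM) lay between them.

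Single genes fell in the neighbouring steps of recombination. Brip1, a helicase that binds BRCA1, went from 33.5 and 33.7 CPM to 24.4 and 26.7 CPM (log2 fold change -0.39, adjusted p = 0.0242, edgeR, 10 of 14 settings), while Brca1 had a value of -0.27 and did not pass (adjusted p = 0.115). All 5 genes for break sensing and resection had values under 0. Blm, the helicase that dissolves crossed strands, went from 28.0 and 30.1 CPM to 21.8 and 23.0 CPM (-0.37, adjusted p = 0.0348, 8 of 14 settings). Eme1, a subunit of a nuclease for branched DNA, went from 17.8 and 16.4 CPM to 11.5 and 12.3 CPM (-0.52, adjusted p = 0.0256, 8 of 14 settings), as the 1 of 9 incision nuclease genes that passed.

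The Fanconi anemia pathway unhooks crosslinks between the strands. Its core complex, a ubiquitin ligase, had 2 of 12 members lower. Fanca (ENSMUSG00000032815, chromosome 8) stood at 25.4 and 27.1 CPM with vehicle and at 16.1 and 17.3 CPM with DI, and fell by 36.4% (log2 fold change -0.65, standard error 0.0903, adjusted p = 0.00767, edgeR). Exons of Zfp276 on the other strand cover 10.5% of those of Fanca. Fancm, the translocase that anchors the complex, fell by 26.6% (-0.45, adjusted p = 0.0435, 9 of 14 settings). Ube2t, the ubiquitin-conjugating enzyme of the complex, had a value of -0.33 and did not pass (adjusted p = 0.183).

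The substrates of the core complex and the enzyme that reverses its mark fell as well. Fanci went from 25.9 and 28.6 CPM to 19.4 and 18.6 CPM (log2 fold change -0.52, adjusted p = 0.016, edgeR, 12 of 14 settings), and Fancd2 from 32.6 and 35.7 CPM to 27.0 and 23.6 CPM (-0.43, adjusted p = 0.0333, 10 of 14 settings). Exons of Polg on the other strand cover 15.95% of those of Fanci. Usp1, the deubiquitinase, went from 90.4 and 89.8 CPM to 73.2 and 69.0 CPM (-0.34, adjusted p = 0.014, 12 of 14 settings), and shares 60.9% of its transcript with a pseudogene at 97.9% identity. Of the 4 genes of this step, 3 were called without RANKL+DI replicate 1, 1 without RANKL+DI replicate 2, 1 without RANKL+Veh replicate 1 and 0 without RANKL+Veh replicate 2. Polh, the translesion polymerase for ultraviolet damage, fell by 19.4% (-0.31, adjusted p = 0.0387, 8 of 14 settings). Atr, the kinase that answers stalled forks, fell by 21.3% (-0.35, adjusted p = 0.0422, 9 of 14 settings).

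**Figure D3:**
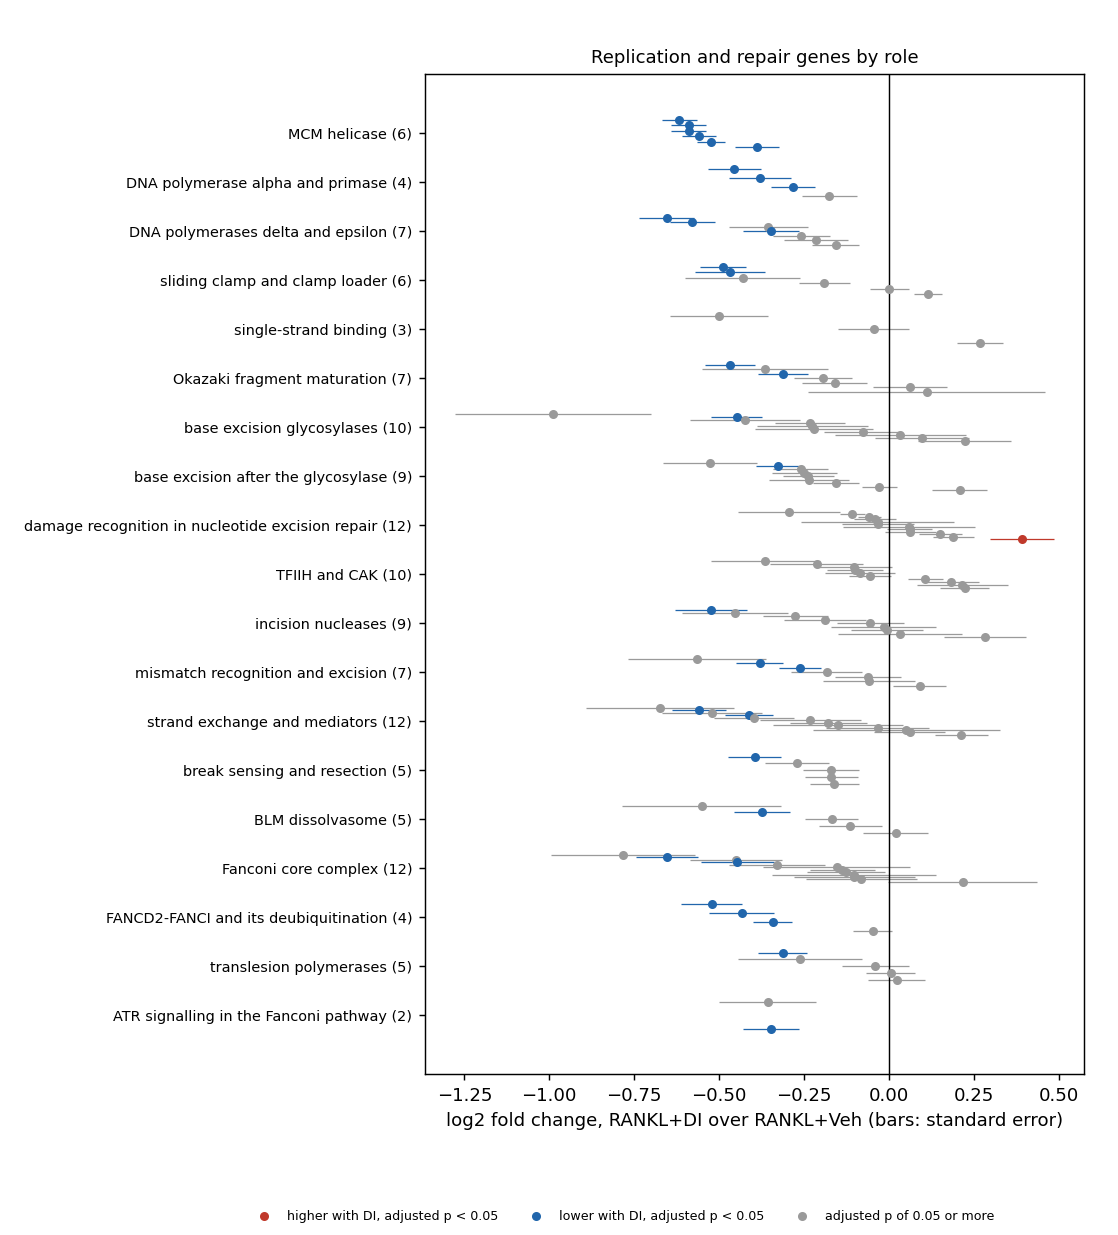
Each point is the log2 fold change (RANKL+DI over RANKL+Veh) of 1 tested member with its standard error, grouped by role with the number tested in brackets. Blue points fell, the red point (Xpc) rose and grey points had an adjusted p of 0.05 or more. The 6 MCM points lie together between -0.62 and -0.39, while the points for damage recognition and TFIIH lie on both sides of 0.

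To compare levels between genes, the deposited FPKM values, which are per length, were used. In the vehicle libraries Pcna had 102 and 97.1 FPKM and was well above the MCM genes, of which Mcm5 and Mcm6 were highest at between 44.5 and 46.1 FPKM, and Mcm2 was lowest at 10.9 and 10.8 FPKM. Mcm5 and Mcm6 did not differ beyond their spread. The catalytic polymerase subunits were lower, with 5.01 and 5.11 FPKM for Pole and 6.93 and 6.56 FPKM for Pold1, and Brca2 stood at 0.674 and 1.004 FPKM. The median level with vehicle was 8.67 FPKM over the DNA replication genes, 2.59 FPKM over the Fanconi anemia pathway and 4.08 FPKM over all tested members.

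Neighbouring processes were read with lists written for this purpose, meant to lie outside the 6 pathways. Poll, in the list for end joining, is however also a member, through base excision repair. Of 24 genes for origin licensing and firing, 13 fell (54.2%, against 7.7% of all tested genes) and none rose, with a median log2 fold change of -0.46. They included Timeless, a fork protection factor (-0.80, adjusted p = 0.00509, edgeR), the helicase loader Cdc6 (-0.66), Mcm10 (-0.66) and the checkpoint adaptor Clspn (-0.55). Of 12 genes for the supply of deoxynucleotides 7 fell (58.3%), with thymidine kinase Tk1 at -0.69 and the ribonucleotide reductase subunits Rrm1 and Rrm2 at -0.44 and -0.37. Of 9 genes for chromatin assembly at the fork 8 fell (88.9%), among them Hells (-0.78), Uhrf1 (-0.72), Chaf1a (-0.52) and Asf1b (-0.40). With each library left out in turn, the calls ranged from 7 to 10 for licensing, 4 to 6 for deoxynucleotides and 6 to 8 for the list of G1/S control, and without either vehicle library 5 were called for chromatin assembly.

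Genes of mitosis, the stage after replication, fell too. All 20 passed the test and were lower, against 7.7% of all tested genes. Their median was -0.60 on the log2 scale, and their summed level was 2990 and 3136 CPM with vehicle and 2031 and 2066 CPM with DI. Examples were the cyclin Ccnb2 (-0.76), the checkpoint kinases Bub1 (-0.68) and Bub1b (-0.57) and the spindle motor Kif11 (-0.62). Between 17 and 20 of them were called with each library left out. The part of a changed number of dividing cells in the members' falls was not tested. Of 23 genes for G1/S control, 8 fell (34.8%, against 7.7% of all tested genes). Among them were Mycl at -2.57, Myc at -0.87, E2f8 at -0.48 and cyclin D1 (Ccnd1) at -0.33. E2f1, named here after its value was seen, had a value of -0.13 and did not pass (adjusted p = 0.21, edgeR). The activity of E2F factors was not tested.

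Some targets of p53, which halts the cell cycle after DNA damage, rose. Of 16 genes 6 rose (37.5%, against 7.14% of all tested genes) and none fell, with a median log2 fold change of 0.18. Those that rose included the cell cycle inhibitor Cdkn1a (362 and 360 CPM with vehicle, 457 and 465 CPM with DI, log2 fold change 0.35, adjusted p = 0.00298, edgeR), Phlda3 (0.53), Trp53inp1 (0.51) and Zmat3 (0.43). With scaling by library size only, 4 rose and the median was 0.08, and 4 rose without RANKL+DI replicate 2 or without RANKL+Veh replicate 1. Non-homologous end joining, the repair of breaks that needs no copied template, had 1 of 9 tested genes lower (Xrcc6, -0.46, adjusted p = 0.0268, edgeR) and a median of -0.05. That made 11.1% lower, near the 7.7% of all tested genes. The Xrcc6 call was lost without RANKL+DI replicate 1, without RANKL+DI replicate 2 and without RANKL+Veh replicate 1, and with the replicate block its adjusted p was 0.0541.

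**Figure D4:**
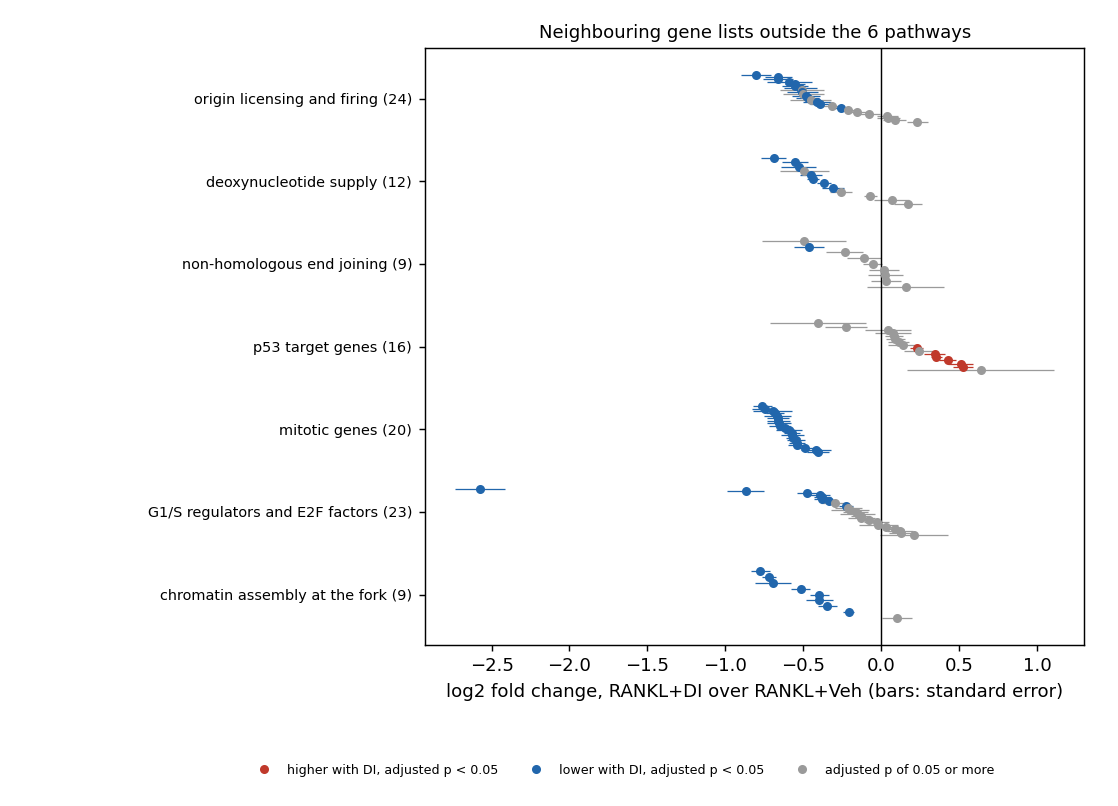
Each point is the log2 fold change (RANKL+DI over RANKL+Veh) of 1 gene with its standard error, for 7 lists of neighbouring processes with the number tested in brackets. Poll, in the end joining list, is also a member. All 20 mitotic genes lie under 0, the p53 targets lie mostly above 0 with 6 called higher, and Mycl stands alone at -2.57.

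The 3 members that were not tested had few counts in every library, and are named here after their values were seen. Counts of the Notch target Hes1 were 9 and 4 in the DI libraries and 2 and 2 in the vehicle libraries, those of the polymerase gene Poln 2 and 4 against 3 and 1, and those of Sycp3, a gene of meiotic chromosomes, 6 and 3 against 4 and 2. At this depth 3 counts correspond to between 0.160 and 0.180 CPM. Of all members, 7 share a long stretch with a near-identical gene copy, and for 23 a gene on the other strand covers more than 10% of the exons. Since no source says that reads were counted by strand, reads of such pairs cannot be told apart.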

How the data were processed

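RNA of BMMs cultured with RANKL and DI or vehicle was sequenced, with 2 libraries per group, and samples were grouped by their labels. The authors deposited raw counts per gene without normalization, and FPKM values, used here only to compare levels between genes. Positions lie on GRCm38 (mm10), which the submitters' processing notes name, and the aligner and counter are not given in the sources used here. Members came from the authors' KEGG column. The members, role lists, outside lists and the rule for named genes were chosen with earlier results of these data known.

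The counts were tested with edgeR 4.0.16 in R 4.3.3 (TMM factors, default filter on low counts, quasi-likelihood test with condition as the only term, Benjamini-Hochberg adjustment over 12590 genes, called at an adjusted p under 0.05). CPM are relative to TMM-scaled library sizes, and errors are standard errors of the log2 fold change. The fit had 2 residual degrees of freedom and a common biological coefficient of variation of 0.0905. Replicates differed by more than sampling noise (chi-square per degree of freedom 7.57 for DI and 7.74 for DMSO). Depth was 16085692 to 19403480 counts per library, and floors cover counting error only. Alternatives were other scalings and filters, DESeq2 1.42.0, limma-voom from limma 3.58.1, the exact test of edgeR, a replicate block and each library left out. The steps were tested on simulated data. Named genes were members with the smallest p-values, the highest and lowest called log2 fold changes, a list of core genes given whatever their values, the strongest called gene of each role, and up to 4 called examples per outside list. Pold2, Rfc4 and Fancm, the called members the rule did not take, were added after their values were seen. Copies were found with BLAST+ 2.17.0 (at least 95% identity over 20% of the transcript) and overlaps in GENCODE M21, which holds 138 of the members. The promoter sequences are from RefSeq (GRCm38.p6). Some genes taken by the rule for named genes are not reported here.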

Additional observations from a re-analysis of the deposited data

How the results depend on the processing

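Against 33 members called (1 higher, 32 lower), scaling by library size only called 50 (0 higher, 50 lower) with a median log2 fold change of -0.29. The median was -0.20 with upper quartile factors and -0.18 with the DESeq2 Wald test, against -0.19. The number higher was 2 with DESeq2 size factors, 2 without a filter on low counts and 2 with at least 10 counts in every library, since Rpa1 was then called beside Xpc. With each library left out, 12 to 22 members were called, 0 to 2 higher and 12 to 21 lower, with medians from -0.21 to -0.17. Left-out calls ranged from 10 to 14 in DNA replication (16 with all libraries), 3 to 5 in base excision repair (6), 1 to 7 in the Fanconi anemia pathway (11), 2 to 3 in homologous recombination (6), 3 to 6 in mismatch repair (7) and 4 to 6 in nucleotide excision repair (7). Scaling by library size only gave 14 in base excision repair, 10 in homologous recombination and 13 in nucleotide excision repair. The DESeq2 Wald test gave 7 in the Fanconi anemia pathway and 23 members in all, 21 of them among the 33. The cause of these shifts was not tested. The replicate numbers were not shown to pair the libraries, since same-numbered libraries deviated with a correlation of -0.0501. With the replicate block, 24 members were called, 0 higher and 24 lower, 23 of them among the 33, with 7 in the Fanconi anemia pathway, 3 in homologous recombination and 4 in nucleotide excision repair. Over the named genes, 826 values kept their side of the threshold, 89 no longer passed it, 8 newly passed it and 0 reversed a call. Values that passed in neither fit could change sign and still count among the 826. Fen1 did so, from 0.11 to -0.37 without RANKL+Veh replicate 2. With 2 libraries per group, the smallest fall called among members was 16.6%, smaller ones may have been missed, and 11 tested members had fewer than 100 counts.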
